A study of Homo sapiens with 4 samples.

Results

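The genes by which a human cell makes, senses, moves and exports cholesterol were examined in LNCaP95 prostate cancer cells and in LN95(KO) cells, in which UGT2B17 had been targeted with CRISPR. The list held 35 genes, listed by name for their known roles, out of 60880 genes in the count table. It comprised 20 enzymes of cholesterol synthesis, 5 genes of SREBP control, 5 genes of sterol uptake, trafficking and storage, and 5 genes of the LXR system and sterol export. All 35 passed the filter on low counts, which kept 15626 genes for testing, though ABCA1 passed only through its LNCaP95 libraries.

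RNA-Seq was available for 2 libraries of LNCaP95 (replicates 1 and 2) and 2 libraries of LN95(KO) (replicates 3 and 4). LNCaP95 is a subline of LNCaP, an androgen-sensitive line from a prostate cancer metastasis, that grows without androgen, and its genotype is given as WT. LN95(KO) is the same line with the genotype UGT2B17 KO, UGT2B17 being an enzyme of the endoplasmic reticulum that conjugates androgens with glucuronic acid. Both lines were grown without treatment in RPMI1640 and charcoal-stripped serum, so the groups differ by the knockout and by whatever its derivation brought with it. How many knockout clones were used is not given in the sources used here, and nothing states that replicates were separate cultures. The sample labels place the knockout in LN95, whereas the design text of the series places it in LNCaP. The p-values below therefore measure the spread between these libraries, which may be technical.

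Each library held between 17330338 and 18813193 gene reads, and genes had a common biological coefficient of variation of 4.27%. UGT2B17 had 2788 and 2748 reads in LNCaP95 and 21 and 20 in LN95(KO), in the direction of the labels. The prostate luminal markers HOXB13, KLK2, TMPRSS2, FOLH1, KRT8 and KRT18 each had at least 225 reads in every library. Some differed widely between the lines, with log2 fold changes of LN95(KO) over LNCaP95 of 4.91 for KLK2, 2.96 for TMPRSS2 and −1.30 for FOLH1. HOXB13 was at −0.49, KRT8 at 0.39 and KRT18 at 0.07. Of 6 markers of other cell types found in the table, PTPRC, CD3E, COL1A2, KRT5 and TP63 had at most 5 reads in any library, while COL1A1 had between 520 and 606. Of 15626 genes tested, 2811 were called, which means that edgeR's quasi-likelihood test gave a Benjamini-Hochberg adjusted p under 0.05 and a fold over 2. That is 18.0% of the genes tested, with 8.86% called higher and 9.13% called lower in LN95(KO), and 59.8% passed on the adjusted p alone.

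Cells build cholesterol from acetyl-CoA through mevalonate, farnesyl diphosphate, squalene and lanosterol, in a chain of enzymes that sit mostly in the endoplasmic reticulum. When sterols run low there, the protein SCAP carries the SREBP transcription factors to the Golgi, where proteases free their active part, and INSIG proteins hold SCAP back when sterols are plentiful. Oxysterols have the opposite role, since they activate the LXR nuclear receptors and these raise the transporters that pass cholesterol out of the cell. Prostate cancer cells are known to store cholesterol esters, and cholesterol is the precursor from which androgens are made.

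Of the 35 sterol genes, 7 were called higher in LN95(KO) and 2 lower. The 7 that rose by more than 2-fold were NPC1, EBP, SCARB1, SREBF1, FDFT1, FDPS and ACAT2, and the 2 that fell by more than 2-fold were ABCA1 and ABCG1. Together the 9 made up 25.7% of the list, beside 18.0% of all genes tested. A further 13 genes rose and 6 fell by less than 2-fold at an adjusted p under 0.05 (edgeR quasi-likelihood, Benjamini-Hochberg), and 7 did not pass the test. Of those 19 smaller changes, 12 (9 rises and 3 falls) also passed with DESeq2, and 10 (7 rises and 3 falls) passed with DESeq2, with every other scaling and filter, and without any 1 library. The CPM values (counts scaled to library size with TMM factors) of the groups did not overlap for 31 of 35 genes, beside 79.8% of all genes tested. The median log2 fold change of LN95(KO) over LNCaP95 was 0.25 over the 20 synthesis enzymes, 0.32 over SREBP control, 0.75 over uptake, trafficking and storage, and −0.40 over LXR and export, against −0.01 over all genes tested. In bulk RNA, fewer cells that express a gene and less RNA per cell cannot be told apart.

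**Figure D1:**
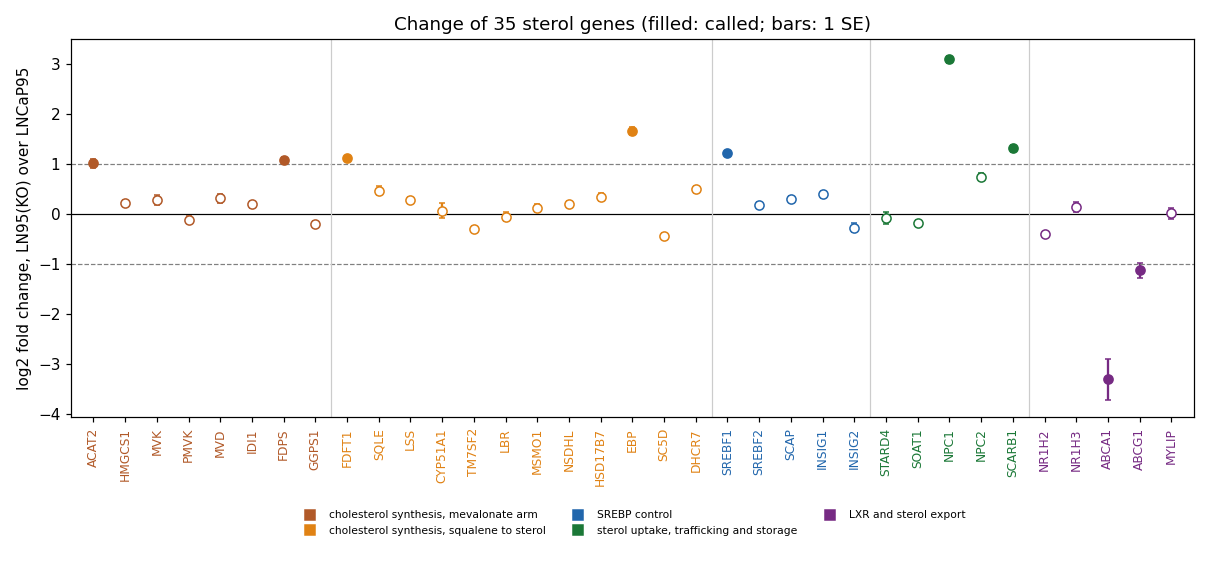
The log2 fold change of LN95(KO) over LNCaP95 is plotted for each of the 35 sterol genes in 5 groups, with bars of 1 SE, filled points for called genes and dashed lines at a 2-fold change. NPC1 at 3.10 and ABCA1 at −3.30 lie farthest from 0, in opposite directions, while most synthesis enzymes lie between 0 and 0.5.

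Per kb of exon, the most abundant transcripts of the list in LNCaP95 were INSIG1 at 47.0 ± 1.4, PMVK at 44.4 ± 2.7, FDFT1 at 42.7 ± 0.15 and SREBF2 at 40.0 ± 1.1 CPM per kb (SD, n = 2). In LN95(KO) the order was led by FDFT1 at 92.7 ± 5.0, followed by INSIG1 at 61.9 ± 8.1, EBP at 57.2 ± 6.9, NPC1 at 51.0 ± 5.1 and SREBF1 at 49.1 ± 3.3. INSIG1, EBP, NPC1 and SREBF1 lay within 2 SD of their neighbours in that order, so their sequence is not resolved. NPC1 entered this upper set from 5.96 ± 0.30 in LNCaP95. ABCA1 was the least abundant in both lines, at 0.199 ± 0.0091 and 0.0198 ± 0.014. The plot of levels by library shows each gene on this scale.

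**Figure D2:**
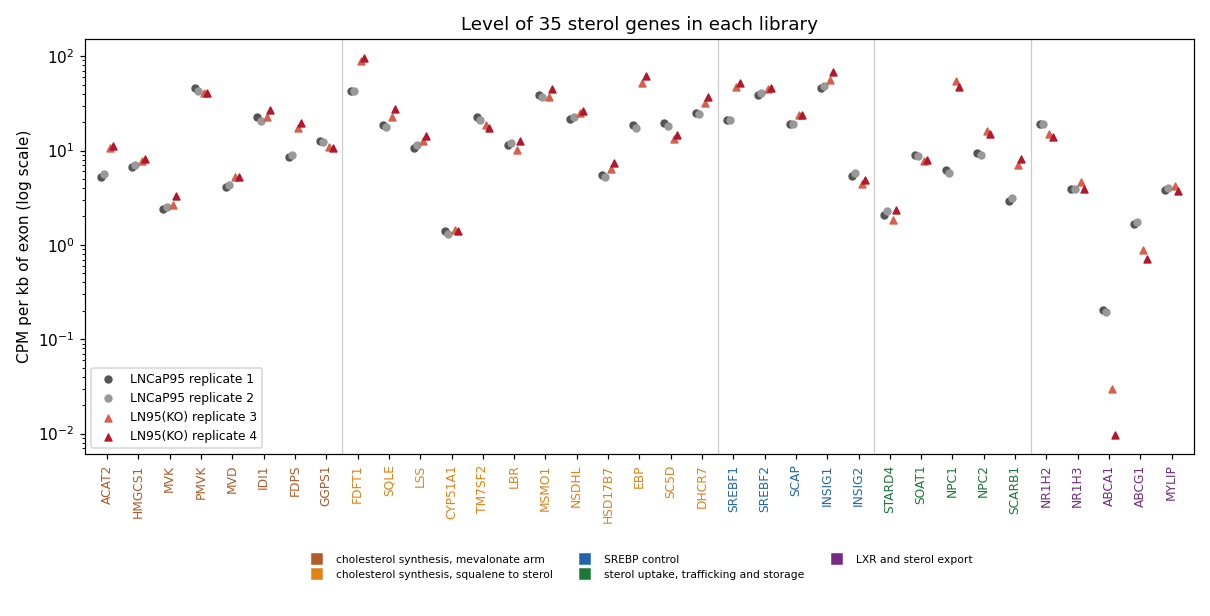
The level of each of the 35 sterol genes in each of the 4 libraries is plotted as CPM per kb of exon on a log axis, circles for LNCaP95 and triangles for LN95(KO). The 2 libraries of a line lie close together for most genes, the triangles of NPC1, EBP, SREBF1 and FDFT1 lie well above the circles, and those of ABCA1 and ABCG1 lie below.

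Among the 8 genes of the mevalonate arm, which make the isoprenoid precursors, the early thiolase ACAT2 and the farnesyl diphosphate synthase FDPS doubled while the steps between them moved little. ACAT2 (ENSG00000120437.8_2), which joins 2 molecules of acetyl-CoA in the cytosol, had 13.8 and 14.8 CPM in LNCaP95 against 28.1 and 29.6 in LN95(KO). FDPS (ENSG00000160752.14_2) had 31.7 and 33.4 CPM against 63.8 and 73.6. For both genes the knockout libraries lay far above the LNCaP95 libraries and the groups did not overlap. The log2 fold change was 1.02 ± 0.09 (SE) for ACAT2 (adjusted p = 3.69e-08) and 1.08 ± 0.08 for FDPS (adjusted p = 1.58e-09, edgeR). Both lie close to the 2-fold limit: without LN95(KO) replicate 4 the log2 fold changes were 0.98 and 0.98, without LNCaP95 replicate 1 that of ACAT2 was 0.96, and a test against a 2-fold change (glmTreat) called neither.

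HMGCS1, the synthase that makes HMG-CoA, rose by 0.22 ± 0.07 on the log2 scale, from 43.9 and 46.7 CPM to 51.9 and 53.9 (adjusted p = 0.00765), but did not pass with DESeq2 (adjusted p = 0.0545) or without LNCaP95 replicate 1 (0.18, adjusted p = 0.112). The mevalonate kinase MVK (0.28), the decarboxylase MVD (0.32) and the isomerase IDI1 (0.20) also rose by less than 2-fold. Without LN95(KO) replicate 4, MVK was at 0.10 (adjusted p = 0.357) and IDI1 at 0.084 (adjusted p = 0.277), and DESeq2 passed neither (adjusted p = 0.109 and 0.0571). Without LNCaP95 replicate 1, MVK and MVD did not pass (adjusted p = 0.093 and 0.0526), and without LNCaP95 replicate 2 IDI1 did not (adjusted p = 0.175). PMVK, the phosphomevalonate kinase, did not pass the test, with a log2 fold change of −0.11 ± 0.07 (adjusted p = 0.17). GGPS1, which diverts farnesyl diphosphate to geranylgeranyl diphosphate, fell by 0.19 on the log2 scale (adjusted p = 0.0193), a change that did not pass with DESeq2 (adjusted p = 0.127), with library totals, or when LNCaP95 replicate 1, LNCaP95 replicate 2 or LN95(KO) replicate 4 was left out. Of the exon bases of ACAT2, 22.2% are shared with other genes, among them the opposite-strand gene TCP1. Of those of FDPS, 18.6% are shared with RUSC1-AS1, which itself had 52 and 58 reads against 119 and 127. The share was larger for GGPS1, at 41.0% with ARID4B and ENSG00000285053. It was 37.7% for HMGCS1, with a gene that had at most 10 reads in any library. Counting ignored strand, and reads in these overlaps cannot be assigned to either gene.

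The next 12 enzymes turn farnesyl diphosphate into squalene, lanosterol and finally cholesterol, and here the rise was led by EBP and FDFT1. EBP (ENSG00000147155.10_4), the sterol isomerase of the late pathway, lies at chrX:48380187-48387104 on GRCh37 (plus strand). It had 33.3 and 30.8 CPM in LNCaP95 and 92.5 and 110 in LN95(KO). Both knockout libraries held about 3 times the LNCaP95 level, and EBP rose by 1.66 ± 0.08 on the log2 scale, a fold of 3.16 (adjusted p = 8.48e-12). FDFT1 (ENSG00000079459.12_3), the squalene synthase that commits the pathway to sterols, had 217 and 216 CPM against 453 and 489. The LNCaP95 libraries were nearly equal and both knockout libraries lay above them, with a log2 fold change of 1.12 ± 0.05 (adjusted p = 3.73e-12). A gene absent from the count table shares 36.4% of the exon bases of EBP.

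The enzymes between and after these steps rose less or fell. SQLE, the squalene epoxidase, had 79.9 and 76.2 CPM against 96.8 and 120, and DHCR7, the reductase that ends the pathway on the branch through lathosterol, had 170 and 166 against 218 and 255. The knockout libraries were higher for both, without overlap, and the log2 fold changes were 0.47 ± 0.08 and 0.50 ± 0.06 (adjusted p = 0.000419 and 2.53e-06). The lanosterol synthase LSS (0.28) and the C4 demethylation enzymes NSDHL (0.21) and HSD17B7 (0.34) rose as well, of which NSDHL did not pass with DESeq2 (adjusted p = 0.0806) or without LNCaP95 replicate 1 or LN95(KO) replicate 4. SC5D, the desaturase that acts between EBP and DHCR7, went the other way, from 195 and 184 CPM to 135 and 147, and fell by 0.43 on the log2 scale (adjusted p = 3.26e-06). TM7SF2, a sterol reductase after lanosterol, fell by 0.29 on the log2 scale (adjusted p = 0.000661). HSD17B7 shares 3.6% of its 100-base windows with the pseudogene HSD17B7P2.

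The other 3 enzymes of this stretch did not pass the test. MSMO1, the C4 methyl oxidase, had 110 and 106 CPM against 106 and 129, and LBR, a nuclear envelope protein with sterol reductase activity, had 65.6 and 69.1 against 57.3 and 72.8. LN95(KO) replicate 3 lay between the LNCaP95 libraries for MSMO1 and below them for LBR, replicate 4 lay above them for both, and the groups overlapped. The log2 fold changes were 0.13 ± 0.08 for MSMO1 (adjusted p = 0.166) and −0.05 ± 0.09 for LBR (adjusted p = 0.672). CYP51A1, the lanosterol demethylase, had a log2 fold change of 0.07 ± 0.15 (adjusted p = 0.724) on 100 to 107 reads per library. Of its exon bases, 74.1% overlap other genes in the GENCODE release used here, which is later than that of the counts. Reads on more than 1 gene were left out of the counts, so its value is uncertain.

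Over the 20 synthesis enzymes, 4 were thus called higher and 0 lower, 9 rose and 3 fell by less than 2-fold, and 4 did not pass the test. The share called higher, 4 of 20, stands beside 8.86% of all genes tested.

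The promoters of these genes were read for the letters of the factors known to act on the pathway. SREBPs bind sterol regulatory elements, usually next to a CCAAT box bound by NF-Y. RefSeq promoters on GRCh38.p14, each from 250 bases before to 50 bases after the gene start, were given for 30 of the 35 genes and not for ABCG1, ACAT2, FDFT1, SCARB1 and SQLE. Where several promoters were given for a gene, it counted as holding a motif if any of them matched. The CCAAT box (CCAAT, either strand) was found in 21 of 30 genes (70%), and in 14 of 17 synthesis enzymes (82.4%). It was found in 39.7% of 27305 genes with a promoter and in 42.1% of protein-coding genes. The sterol regulatory element, searched as TCACNCCAC on both strands, was found in 1 of 30 genes, SREBF2, against 1.39% of all genes. The E-box CACGTG was found in 5 of 30 (16.7%) against 8.77%, and the DR4 element of LXR (AGGTCA repeated in the same direction with 4 bases between) in 0 of 30 against 0.0256%. A match is a run of letters, not a bound site. Only exact letters were searched, so elements that depart from them were missed and a promoter without a match may still hold one. The CCAAT box was present in 2 of the 4 genes called higher that had a promoter and in 19 of the 25 not called.

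The 200 bases before the start are shown for EBP and FDPS, 2 called synthesis genes. Where several promoters were given for a gene, the one with the most matches is shown. HMGCS1 and INSIG1 are shown as SREBP targets of small change. SREBF2 is shown as the only gene of the list with an exact match to the sterol element letters searched, and ABCA1 as the gene that fell most. Capitals mark the CCAAT box, which reads ATTGG when it lies on the other strand, the sterol element TCACCCCAC and the E-box CACGTG. Coordinates are on GRCh38.p14, with chrX:48521608-48521807 (plus strand) for EBP, chr1:155308666-155308865 (plus) for FDPS, chr5:43313413-43313612 (minus) for HMGCS1, chr7:155297678-155297877 (plus) for INSIG1, chr22:41832905-41833104 (plus) for SREBF2 and chr9:104928156-104928355 (minus) for ABCA1.
EBP: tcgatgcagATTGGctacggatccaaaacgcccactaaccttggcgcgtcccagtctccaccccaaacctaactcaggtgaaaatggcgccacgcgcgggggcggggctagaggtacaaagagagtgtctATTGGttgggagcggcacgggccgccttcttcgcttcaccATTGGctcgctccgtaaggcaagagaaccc
FDPS: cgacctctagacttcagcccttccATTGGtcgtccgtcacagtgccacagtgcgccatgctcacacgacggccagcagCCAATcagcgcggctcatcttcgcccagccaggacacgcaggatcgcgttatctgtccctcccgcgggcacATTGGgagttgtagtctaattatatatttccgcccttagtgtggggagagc
HMGCS1: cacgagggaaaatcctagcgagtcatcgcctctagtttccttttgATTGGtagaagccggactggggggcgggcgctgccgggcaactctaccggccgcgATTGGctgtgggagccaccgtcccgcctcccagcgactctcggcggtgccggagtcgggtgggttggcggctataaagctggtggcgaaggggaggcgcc
INSIG1: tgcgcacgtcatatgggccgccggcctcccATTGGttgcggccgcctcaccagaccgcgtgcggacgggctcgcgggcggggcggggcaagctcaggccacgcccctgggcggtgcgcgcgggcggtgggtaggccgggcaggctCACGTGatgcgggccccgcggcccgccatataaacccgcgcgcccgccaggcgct
SREBF2: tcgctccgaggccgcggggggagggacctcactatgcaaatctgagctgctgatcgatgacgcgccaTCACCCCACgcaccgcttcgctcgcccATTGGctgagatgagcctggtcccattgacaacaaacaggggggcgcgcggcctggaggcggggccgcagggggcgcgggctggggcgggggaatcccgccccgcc
ABCA1: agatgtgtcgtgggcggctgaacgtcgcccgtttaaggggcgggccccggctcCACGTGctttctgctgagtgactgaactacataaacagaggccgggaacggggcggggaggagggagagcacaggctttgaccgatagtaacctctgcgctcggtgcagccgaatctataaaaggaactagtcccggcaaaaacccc
EBP and FDPS each hold 3 CCAAT boxes, with first bases 191, 70 and 30 bases before the start in EBP and 176, 122 and 51 in FDPS. HMGCS1 holds 2, at 155 and 100. In SREBF2 the sterol element begins 133 bases before the start and a CCAAT box 106. INSIG1 holds a CCAAT box at 170 and an E-box at 55. In ABCA1 the only exact match to the letters searched is an E-box at 147. ABCA1 also holds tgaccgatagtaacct, which on the other strand comes near the DR4 letters without matching them, so it was not counted.

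In SREBP control, SREBF1 more than doubled while SREBF2 changed little. SREBF1 (ENSG00000072310.16_3), which encodes the SREBP1 proteins that act mainly on fatty acid synthesis, lies at chr17:17713713-17740316 on GRCh37 (minus strand). It had 174 and 173 CPM in LNCaP95 and 386 and 424 in LN95(KO). The libraries of each line were close and the lines far apart, with a log2 fold change of 1.22 ± 0.05 (adjusted p = 2.33e-12). SREBF2, which encodes SREBP2, the main activator of cholesterol synthesis, had 316 and 328 CPM against 364 and 372, a log2 fold change of 0.19 ± 0.05 (adjusted p = 0.00199, and 0.0617 without LNCaP95 replicate 1). Per kb of exon, SREBF1 lay below SREBF2 in LNCaP95 and close to it in LN95(KO). SREBF1 was at 21.1 ± 0.063 and SREBF2 at 40.0 ± 1.1 CPM per kb in LNCaP95. In LN95(KO) they were at 49.1 ± 3.3 and 45.7 ± 0.71, which differ by little more than 1 SD. The counts per gene do not separate the isoforms of SREBF1, and SREBP activity is set by cleavage of the protein, which was not measured.

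SCAP, the sterol-sensing escort of SREBPs, rose from 121 and 120 CPM to 149 and 150, a log2 fold change of 0.32 ± 0.05 (adjusted p = 3.41e-05). INSIG1, the retention factor that is itself induced by SREBPs, had 168 and 175 CPM against 205 and 247 and rose by 0.40 ± 0.07 on the log2 scale (adjusted p = 0.00042). INSIG2 moved the other way and fell by 0.27 on the log2 scale, from 21.3 and 22.9 CPM to 17.4 and 19.3 (adjusted p = 0.0202), but did not pass with DESeq2 (adjusted p = 0.135), with library totals or without LNCaP95 replicate 2 or LN95(KO) replicate 3. The groups did not overlap for any of the 5 genes, nor did they for 79.8% of all genes tested. Thus 1 of the 5 was called higher and 0 lower, beside 18.0% of all genes tested, with 3 rises and 1 fall of less than 2-fold.

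Of 10 further genes that process SREBPs or degrade sterol-regulated proteins, 1 was called, a share no larger than the 18.0% of all genes tested. RNF145, an E3 ubiquitin ligase of the endoplasmic reticulum that takes part in sterol-dependent turnover, fell from 184 and 182 CPM to 84.2 and 82.5, a log2 fold change of −1.14 ± 0.05 (adjusted p = 3.78e-12). Among the others, 1 rose and 3 fell by less than 2-fold and 5 did not pass the test. The 3 that fell included MBTPS1 and MBTPS2, the Golgi proteases that cut SREBPs, with log2 fold changes of −0.32 and −0.58. ERLIN2, which helps to degrade sterol-regulated proteins, was the remaining fall, at −0.52.

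The largest rise of the list was in the RNA of a gene for the movement of sterols out of lysosomes, a movement that was not measured. NPC1 (ENSG00000141458.12_3), the lysosomal membrane protein that passes cholesterol from taken-up lipoproteins to the rest of the cell, lies at chr18:21086148-21166470 on GRCh37 (minus strand). It had 59.9 and 55.9 CPM in LNCaP95 and 530 and 460 in LN95(KO). Both knockout libraries stood far above both LNCaP95 libraries, at 8391 and 9385 reads against 1023 and 1106. The log2 fold change was 3.10 ± 0.07, a fold of 8.55 (adjusted p = 2.6e-16), which ranked 245 of 15626 genes from the top. NPC2, the soluble lysosomal protein that hands cholesterol to NPC1, had 24.5 and 23.4 CPM against 41.6 and 39.1 and rose by 0.75 ± 0.08 on the log2 scale (adjusted p = 1.98e-07), a fold of 1.69.

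SCARB1 (ENSG00000073060.15_3), the scavenger receptor that takes up cholesterol esters from HDL, rose from 43.8 and 47.0 CPM to 105 and 121. Its groups did not overlap, and the log2 fold change was 1.32 ± 0.07 (adjusted p = 4e-11). The storage enzyme SOAT1, which esterifies cholesterol, fell by 0.18 on the log2 scale, from 63.0 and 60.9 CPM to 54.1 and 55.5 (adjusted p = 0.0201), but did not pass with DESeq2 (adjusted p = 0.118), with library totals, or when LNCaP95 replicate 1, LNCaP95 replicate 2 or LN95(KO) replicate 3 was left out. STARD4, a cytosolic sterol carrier, had 11.8 and 13.0 CPM against 10.3 and 13.2. Its groups overlapped, since LN95(KO) replicate 3 was the lowest library and replicate 4 the highest, and the log2 fold change of −0.07 ± 0.13 did not pass the test (adjusted p = 0.639). Thus 2 of the 5 genes were called higher and 0 lower, beside 8.86% of all genes tested called higher.

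Of 25 other sterol-handling genes, 20 could be tested, and 1 was called higher and 3 lower, 4 of 20 beside 18.0% of all genes tested. TMEM97, a protein of the endoplasmic reticulum that binds NPC1, rose from 77.6 and 81.3 CPM to 196 and 238 (log2 fold change 1.45 ± 0.08, adjusted p = 1.69e-08). LRP1, an endocytic receptor of lipoprotein remnants, fell from 40.0 and 41.5 CPM to 13.1 and 11.9 (−1.71 ± 0.09, adjusted p = 1.92e-11). GRAMD1B, which carries cholesterol from the plasma membrane to the endoplasmic reticulum, had 25 and 30 reads against 1 and 1, and the ratio of LNCaP95 over LN95(KO) was 26.9 with a 95% counting interval of 7.1 to 228. CYP46A1, a cholesterol hydroxylase best known from brain, had 18 and 30 reads against 5 and 8 (−1.83 ± 0.44, adjusted p = 0.00164). GRAMD1B and CYP46A1 passed the filter on low counts only through LNCaP95, so their place among the tested genes already leans towards a fall. The lysosomal lipase LIPA and the cholesterol ester hydrolase NCEH1 were among 11 genes that rose by less than 2-fold, with log2 fold changes of 0.64 and 0.75. The ester-forming enzyme SOAT2 and the oxysterol-making enzymes CH25H and CYP7B1 had 0 reads in all 4 libraries, which allows up to 3 reads, or 0.163 to 0.169 CPM, in each.

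In the LXR system, both export transporters fell while the receptors moved by less than 2-fold. ABCA1 (ENSG00000165029.15_2), which loads cholesterol onto apolipoproteins outside the cell, lies at chr9:107543287-107690436 on GRCh37 (minus strand). It had 43 and 40 reads in LNCaP95 and 6 and 2 in LN95(KO), or 2.33 and 2.18 against 0.339 and 0.11 CPM. Every knockout library lay below every LNCaP95 library, but ABCA1 was low in both lines and its knockout level rests on 8 reads. It passed the filter on low counts only through LNCaP95, so its place among the tested genes already leans towards a fall. The pooled ratio of LNCaP95 over LN95(KO) was 10.1 with a 95% counting interval of 4.92 to 24.3, and the log2 fold change was −3.30 ± 0.42 (adjusted p = 2.7e-06). It was −4.28 without LN95(KO) replicate 3 and −2.71 without replicate 4, and passed the test both ways.

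ABCG1 (ENSG00000160179.18_5), which exports sterols to HDL, had 190 and 197 reads against 95 and 79, or 10.3 and 10.8 against 5.37 and 4.33 CPM. The groups did not overlap, and the log2 fold change was −1.12 ± 0.15 (adjusted p = 4.44e-06). Without LN95(KO) replicate 4 it was −0.97, under the 2-fold limit, and glmTreat did not call it. Of the receptors, NR1H2 (LXR beta) fell from 102 in both LNCaP95 libraries to 80.0 and 74.8 CPM, a log2 fold change of −0.40 ± 0.06 (adjusted p = 9.02e-06), while NR1H3 (LXR alpha), at 17.6 in both LNCaP95 libraries against 20.9 and 17.9 CPM, did not pass the test (0.14 ± 0.10, adjusted p = 0.236). MYLIP, an LXR-induced ubiquitin ligase that degrades lipoprotein receptors, had 11.6 and 12.4 CPM against 12.8 and 11.5. Its groups overlapped and it did not pass the test either (0.02 ± 0.11, adjusted p = 0.91). Thus 2 of the 5 genes were called lower and 0 higher, beside 9.13% of all genes tested called lower.

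NPC1 and ABCA1 were also set beside the genes around them, a view chosen after their values were seen. Within 1 Mb of NPC1, 11 other genes were tested, of which 4 were called higher and 0 lower (36.4%, beside 18.0% of all genes tested). LAMA3, a laminin chain whose gene lies 102.9 kb from NPC1, went from 801 and 798 reads to 7227 and 6628 (log2 fold change 3.15 ± 0.06), close to the 3.10 of NPC1. OSBPL1A, an oxysterol-binding protein of late endosomes, rose by 1.34 ± 0.07. ANKRD29 and LINC02958 were called on few reads, 4 against 27 and 6 against 26 per group, which are ratios of 6.9 (95% counting interval 2.41 to 27.2) and 4.43 (1.78 to 13.2). Both passed the filter on low counts only through LN95(KO), which leans towards a rise. Other genes of that window were not called, among them RMC1, which overlaps the end of NPC1 on the opposite strand and rose by 0.30, and RIOK3, which fell by 0.34 on the log2 scale.

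Within 1 Mb of ABCA1, 8 other genes were tested, of which 3 were called lower and 1 higher (4 of 8, beside 18.0% of all genes tested). Next to the end of ABCA1, at gaps of 3.2 and 20.9 kb, lie NIPSNAP3B and NIPSNAP3A, members of a family of mitochondrial and vesicular proteins. NIPSNAP3A fell from 10770 and 10028 reads to 1104 and 1179 (log2 fold change −3.15 ± 0.06, adjusted p = 1.32e-17), and NIPSNAP3B had 35 and 25 reads against 1 and 0, a ratio of 58.7 with a counting interval of 10.1 to 2360. NIPSNAP3B passed the filter on low counts only through LNCaP95, which leans towards a fall. On the other side, SLC44A1, a choline transporter, fell by 1.30 on the log2 scale. SMC2 was called higher (1.38), and the median of the 8 was −0.88. The DNA around either gene was not measured, and whether the neighbours share a cause was not tested. Around the other 7 called sterol genes the share of tested neighbours called within 1 Mb was 8.33% for SREBF1 (3 of 36), 11.3% for FDPS (7 of 62) and 12.8% for EBP (5 of 39), all below the 18.0% of all genes tested. It was 25.0% for FDFT1 (4 of 16), 27.3% for ACAT2 (3 of 11), 31.2% for ABCG1 (5 of 16) and 38.5% for SCARB1 (5 of 13). With so few genes in a window, these shares are descriptions, and SCARB1 is as high as NPC1.

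**Figure D3:**
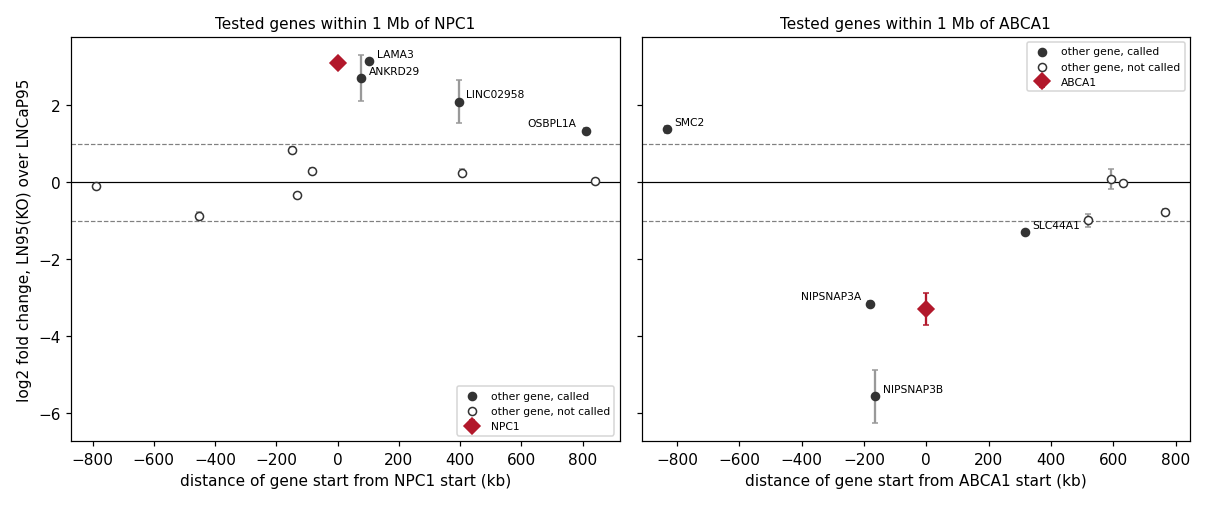
The log2 fold change (bars of 1 SE) of every tested gene within 1 Mb is plotted by the distance in kb of its start from the start of NPC1 or ABCA1, the latter drawn as red diamonds, with filled points for called genes and dashed lines at a 2-fold change. LAMA3 and ANKRD29 sit beside NPC1 at 3.15 and 2.71, and NIPSNAP3A sits beside ABCA1 at −3.15.

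The 2 knockout libraries differed from each other across the list. LN95(KO) replicate 4 was above replicate 3 for 17 of 20 synthesis enzymes, with a median log2 ratio of 0.14, and for 5 of 5 genes of SREBP control. It was below replicate 3 for 5 of 5 genes of LXR and export. Over all genes tested, 50.9% were higher in replicate 4 and the median log2 ratio was 0.00. Among genes with a mean count of at least 100, the 5th to 95th percentile of the same ratio was −0.24 to 0.25, and the synthesis enzymes reached from −0.10 (TM7SF2) to 0.35 (LBR). In LNCaP95, replicate 2 was above replicate 1 for 8 synthesis enzymes and below it for 12, with a median log2 ratio of −0.04. These counts describe 1 pair of libraries, genes within a library are not independent, and no test was made.

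**Figure D4:**
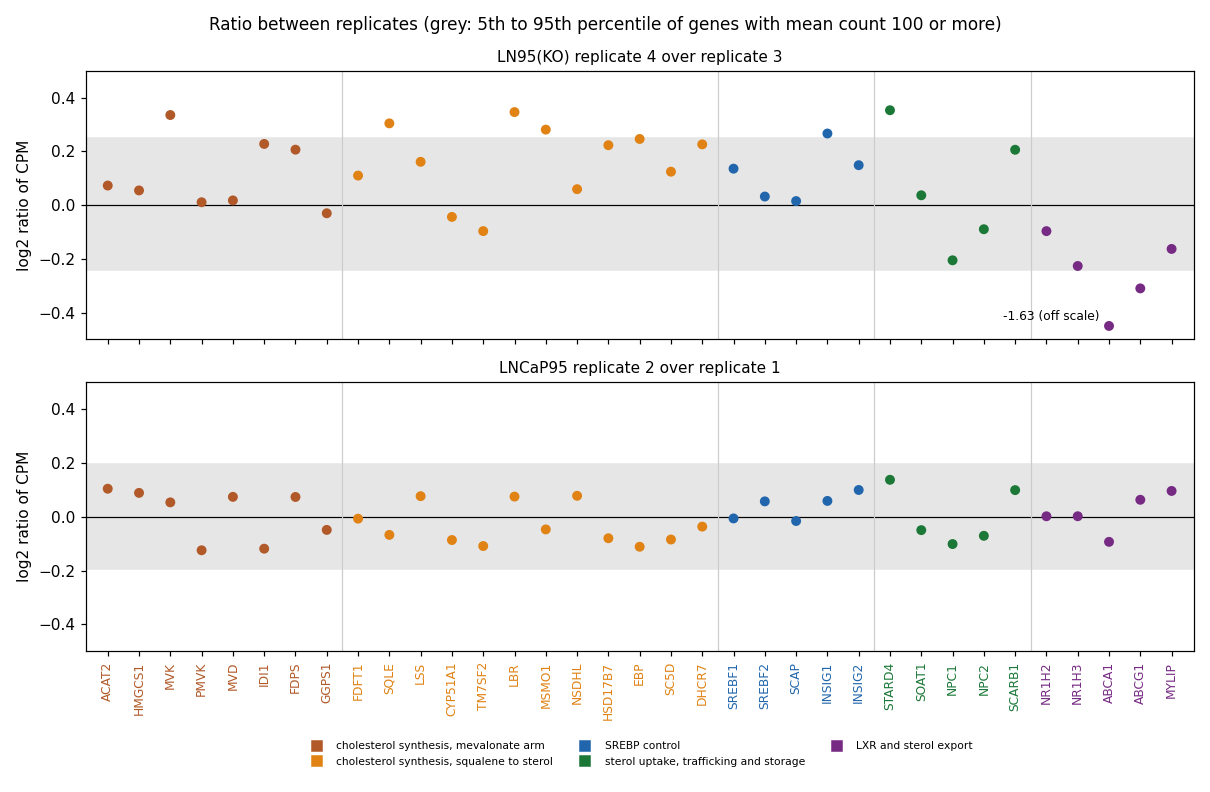
The log2 ratio of CPM between the 2 libraries of a line is plotted for each of the 35 sterol genes, LN95(KO) replicate 4 over 3 above and LNCaP95 replicate 2 over 1 below, with a grey band for the 5th to 95th percentile of genes with a mean count of at least 100. In the knockout panel 17 of 20 synthesis enzymes lie above 0 and all 5 LXR and export genes below it, with ABCA1 off scale at −1.63.

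The branches of the mevalonate pathway lead to prenylated proteins, dolichol and ubiquinone. Of 15 such genes, 2 were called higher and 0 lower, a share of 13.3% that lies near the 18.0% of all genes tested. RABGGTB, the catalytic subunit that attaches geranylgeranyl groups to Rab proteins, rose from 41.1 and 39.4 CPM to 96.6 and 94.2 (log2 fold change 1.25 ± 0.06, adjusted p = 1.08e-11). Its partner subunit RABGGTA fell by 0.49 on the log2 scale. PDSS1, which builds the side chain of ubiquinone, rose from 8.72 and 6.17 CPM to 13.8 and 17.1 (1.05 ± 0.15, adjusted p = 1.18e-05), and PDSS2 and COQ2 of the same branch rose by 0.60 and 0.57. The rest comprised 2 further rises and 1 further fall of less than 2-fold and 7 genes that did not pass the test.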

How the data were processed

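RNA-Seq was analysed in 2 LNCaP95 and 2 LN95(KO) libraries, grouped by their labels. The authors deposited raw read counts, made on hg19 with HISAT2 (version 2.1.0) and HTSeq without use of strand, a step that drops reads on more than 1 gene. The 5 summary lines of each library stayed out of all sums: reads on no feature (3.81% to 4.06% of entries), ambiguous (9.82% to 10.4%), of low quality (1.82% to 1.98%), not unique (3.78% to 3.86%) and not aligned (3.85% to 8.05%). Symbols were joined by Ensembl identifier (59859 of 60880 matched). Genes kept by filterByExpr (minimum count 10, total 15) entered edgeR's robust quasi-likelihood fit with TMM factors (edgeR 4.0.16 under R 4.3.3), adjusted by Benjamini-Hochberg over 15626 genes, and checked on simulated data. DESeq2 (version 1.42.0), glmTreat, other scaling, no filter and leaving out each library were alternatives. The SE is the absolute log2 fold change over the square root of F. Exon lengths and overlaps came from a later GENCODE release on GRCh37 than the paper names for counting. The shares of overlapping exon bases need not be those that applied in counting. The smallest two-sided permutation p of 2 against 2 is 0.333, so none is given. Intervals cover counting error only. All members, UGT2B17 and the called genes of the context lists were named by rule, others after their values were seen. The members and lists were chosen with earlier results of these data known. 1 marker gene is not reported here.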

Additional observations from a re-analysis of the deposited data

Results flagged for a closer look

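Reads that did not align lay outside the measurements above and differed between the lines. They made up 8.05% and 7.71% of all entries in LN95(KO) replicates 3 and 4, against 3.85% and 3.96% in LNCaP95 replicates 1 and 2. Both knockout libraries, the lowest at 7.71%, were above both LNCaP95 libraries. Their part in the values of the sterol genes was not tested.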

How the results depend on the processing

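Direction and call at 2-fold were kept by all 35 sterol genes with RLE size factors, DESeq2 or no filter on low counts. Of the 19 changes under 2-fold, DESeq2 did not pass 7 (GGPS1, HMGCS1, IDI1, INSIG2, MVK, NSDHL and SOAT1), library totals did not pass 3, and leaving out a library lost 2 to 7. Of the 7 genes that did not pass, MSMO1 passed with library totals and without LN95(KO) replicate 3, and LBR and NR1H3 passed without LN95(KO) replicate 4. The count of genes called was 2811, and it was 2358 by DESeq2, 1687 by glmTreat and 9349 with no fold criterion. Sterol genes called higher, 7, became 20 with no fold criterion, and those called lower, 2, became 1 by glmTreat and 8 with no fold criterion. glmTreat left out ACAT2, FDPS and ABCG1. Leaving out each library in turn gave 2539 to 2777 genes called, 5 to 7 sterol genes higher and 1 to 2 lower, and medians of 0.19 to 0.32 for the synthesis enzymes, 0.26 to 0.33 for SREBP control and −0.45 to −0.35 for LXR and export. Scaling by library totals moved the median of all genes by 0.06 and gave medians of 0.37 for SREBP control and −0.35 for LXR and export. Signs changed only for genes that did not pass the test: LBR was 0.0059 with library totals, and leaving out each library gave −0.23 to 0.12 for LBR, −0.26 to 0.095 for STARD4, −0.017 to 0.26 for MSMO1 and −0.062 to 0.10 for MYLIP. Leaving out a library leaves a line with 1 library, which is then assumed to vary like the other line. No paired analysis was possible because the lines share no replicate number. Depth limits ABCA1 and GRAMD1B, with 8 and 2 reads in LN95(KO).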
